A study of Mus musculus with 19 samples.

Results

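Amino acid breakdown in the liver was followed in mice made azotemic with furosemide, through 46 genes that encode amino acid degrading enzymes, the creatine synthesis enzymes and amino acid carriers. The 46 symbols were listed by pathway role, with earlier results of these data known. Each was matched to its Ensembl gene in the deposited table of 55416 gene lines. All 46 were found, and all 46 were among the 15570 genes tested after a filter on low counts. The samples are 19 liver RNA-seq libraries from C57BL/6 mice. 3 libraries are from IL-6 -/- mice (KO) with furosemide-induced pre-renal azotemia (PRA), 4 from KO mice given vehicle, 4 from wild-type (WT) mice with PRA, 4 from WT mice given vehicle and 4 from WT mice that were not injected (normal). Injected animals received 2 intraperitoneal doses of vehicle or of 4 mg furosemide, a loop diuretic, separated by 3 h, and the liver was taken 6 h after the first dose. Vehicle mice therefore share the injections with PRA mice, whereas normal mice had none. The sources used here do not give the age of the animals, whether each library is a separate animal, or the IL-6 allele beyond its -/- label. Each p-value therefore sets a difference between groups against the spread of these libraries, which may be technical.

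Liver is the main site where most amino acids are degraded: aminotransferases and dehydratases remove the amino group, which feeds the urea cycle, and the carbon skeletons enter gluconeogenesis or the tricarboxylic acid cycle. Branched-chain amino acids are an exception, since their first transamination occurs mostly outside the liver. Tat, Tdo2 and Sds are textbook examples of liver enzymes whose transcripts are induced by glucocorticoids or glucagon, and Slc38a2 is known to be induced by amino acid shortage and by cell shrinkage. Pre-renal azotemia is a build-up of nitrogenous waste in blood caused by poor perfusion of the kidneys.

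Depth was 32073865 to 74041441 gene counts per library. Levels are given as CPM, the count relative to the library total after scaling by the trimmed mean of M-values (TMM). The scaling factors were 0.845 to 0.953 in the 7 PRA libraries and 1.01 to 1.16 in the other 12. Il6 had 3, 16 and 5 counts in KO PRA libraries, 4, 1, 1 and 3 in KO vehicle, 2, 1, 0 and 3 in WT PRA, 4, 0, 0 and 0 in WT vehicle and 0, 2, 0 and 1 in normal libraries. At these counts the genotype could not be checked, KO libraries were not lower than WT libraries, and KO PRA replicate 2 held the highest count. KO and WT therefore mean the libraries so labelled. The 10 hepatocyte markers summed to 143119 to 191245 CPM in KO PRA, 128621 to 136267 in KO vehicle, 134477 to 142097 in WT PRA, 99649.6 to 129438 in WT vehicle and 97247 to 109452 in normal libraries. The kidney tubule list reached at most 7.51 CPM in a library and the skeletal muscle list at most 1.31 CPM.

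The 3 promoters shown belong to genes that were higher under PRA in both genotypes and that hold a motif of interest. Each is the 250 bases before the annotated start on the gene's strand, from RefSeq on GRCm38.p6, which is not the build of the counts. Slc38a2 (ENSMUSG00000022462, chr15:96699729-96699978, minus strand) and Aass (ENSMUSG00000029695, chr6:23132987-23133236, minus strand) hold a cAMP response half-site, TGACG, which begins 27 and 37 bases before the start and is set in capitals. Got1 (ENSMUSG00000025190, chr19:43524606-43524855, minus strand) holds a match to the C/EBP-ATF composite TGATGNAA on its opposite strand, in capitals, 102 bases before the start.
Slc38a2: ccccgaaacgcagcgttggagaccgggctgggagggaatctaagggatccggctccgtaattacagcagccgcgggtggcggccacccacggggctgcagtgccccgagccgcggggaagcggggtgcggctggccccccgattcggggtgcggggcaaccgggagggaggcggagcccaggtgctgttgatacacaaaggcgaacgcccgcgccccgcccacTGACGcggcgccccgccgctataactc
Aass: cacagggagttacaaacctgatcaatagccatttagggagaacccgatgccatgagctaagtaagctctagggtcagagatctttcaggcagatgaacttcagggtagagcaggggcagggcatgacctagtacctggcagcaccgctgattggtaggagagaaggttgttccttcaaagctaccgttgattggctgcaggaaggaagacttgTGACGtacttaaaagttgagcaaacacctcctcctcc
Got1: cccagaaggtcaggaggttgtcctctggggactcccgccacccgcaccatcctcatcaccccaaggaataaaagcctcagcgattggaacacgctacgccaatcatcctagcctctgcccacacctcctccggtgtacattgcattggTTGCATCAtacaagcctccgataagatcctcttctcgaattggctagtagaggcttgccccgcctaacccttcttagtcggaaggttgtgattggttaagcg

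Windows were found for 38 of the 46 genes (43 windows, with some genes having several starts). The 8 genes without a window, which were not searched, were Sds, Sdsl, Mat1a, Kynu, Dbt, Cth, Gpt and Slc7a2. Among them TGACG on either strand occurred in 11.6% of windows, against 17.8% of all 32851 windows in the table. The composite occurred in 2.33% against 3.45%. AGAACA, the glucocorticoid receptor half-site, searched on both strands, occurred in 9.30% against 16.1%, and TATAAA, the TATA box, searched on the gene's strand, in 6.98% against 7.59%. No window of these genes held the glucocorticoid receptor palindrome as searched (AGAACA, any 3 bases, then TGTTC, in 0.0304% of all windows) or the C/EBP palindrome TTGCGCAA (0.164%). These matches describe letters in the window and show no binding. Besides the genes shown, the cAMP response half-site was in the windows of Ftcd, Shmt1 and Slc38a4, and the glucocorticoid receptor half-site in those of Agxt, Bckdhb, Haao and Slc38a4. The letters TATAAA were in the windows of Ftcd, Tdo2 and Slc38a4, beginning 29, 229 and 208 bases before the start. In Slc38a4, which has 3 windows, the cAMP half-site and TATAAA lie in another window than the glucocorticoid receptor half-site. For these Slc38a4 windows, the Tdo2 window and the Bckdhb window with a motif, the bases after the start were not found near the beginning of an annotated transcript. The same held for the windows of Tat, Sardh and Gldc, in which no motif was found, so their starts are uncertain.

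In both genotypes, PRA livers had more transcript of enzymes that open tyrosine, tryptophan, lysine, serine and methionine breakdown. They also had more of the neutral amino acid carrier Slc38a2, and less of Bcat2 and Gatm. Shmt1 was lower too, but its WT call was narrow (edgeR adjusted p 0.0489). That call was lost with DESeq2 and in several fits that left out 1 library. On the log2 scale the differences were largest for Tat, 2.20 ± 0.34 in KO and 2.16 ± 0.33 in WT, for Sds, 2.14 ± 0.36 and 1.53 ± 0.34, and for Slc38a2, 1.68 ± 0.18 and 2.07 ± 0.17 (SE of the fit over all 19 libraries). In KO livers, 13 of the 46 genes were higher and 3 lower under PRA than after vehicle, and 30 did not pass (edgeR quasi-likelihood test, Benjamini-Hochberg adjusted p at or under 0.05 over all 15570 genes). Over all genes tested, 16.3% were called in KO livers, 7.96% higher and 8.38% lower. In WT livers, 11 were higher and 3 lower, and 32 did not pass, where 22.1% of all genes were called, 9.74% higher and 12.3% lower. The higher calls in both genotypes were Tat, Hpd, Tdo2, Aass, Sds, Sdsl, Mat1a, Got1 and Slc38a2, which are 69.2% of the KO list and 81.8% of the WT list. The lower calls were Shmt1, Bcat2 and Gatm in each. Kynu, Gpt2, Slc38a4 and Slc7a2 passed in KO livers and not in WT livers, and Fah and Kmo in WT livers and not in KO livers. The median log2 fold change of the 46 was 0.27 in KO and 0.20 in WT livers, against -0.00 and -0.03 over all genes tested.

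Levels in every library of PRA mice lay above every library of vehicle mice for 17 of the 46 genes in KO and 18 in WT, and below for 3 and 2. Among all genes tested these shares were 11.9% above and 13.2% below in KO, and 11.1% and 12.1% in WT. The 46 genes together took 3.04 ± 0.280% of gene counts in KO PRA, 2.25 ± 0.321% in KO vehicle, 3.20 ± 0.157% in WT PRA, 2.55 ± 0.171% in WT vehicle and 2.25 ± 0.264% in normal libraries (SD, n = 3 for KO PRA and 4 for the others). KO vehicle replicate 1 had the lowest share, 1.82%, and without it 10 genes were higher and 3 lower in KO livers. Without KO PRA replicate 3, 8 were higher. In whole liver RNA, fewer cells of a type and less RNA per cell cannot be told apart. With library totals in place of TMM factors, the median of all genes moved to -0.21 in KO and -0.33 in WT, and 9 of the 46 were higher in each genotype, with 4 lower in KO and 7 lower in WT. Of all genes called, 48.7% were higher in KO and 44.1% in WT with TMM, 35.3% and 34.0% with upper quartile scaling, and 15.4% and 9.38% with library totals. The summed hepatocyte markers were also higher in every PRA library than in the vehicle libraries of the same genotype, 1 of the 10 passing in each genotype, and their part in the differences of the 46 genes was not tested.

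**Figure D1:**
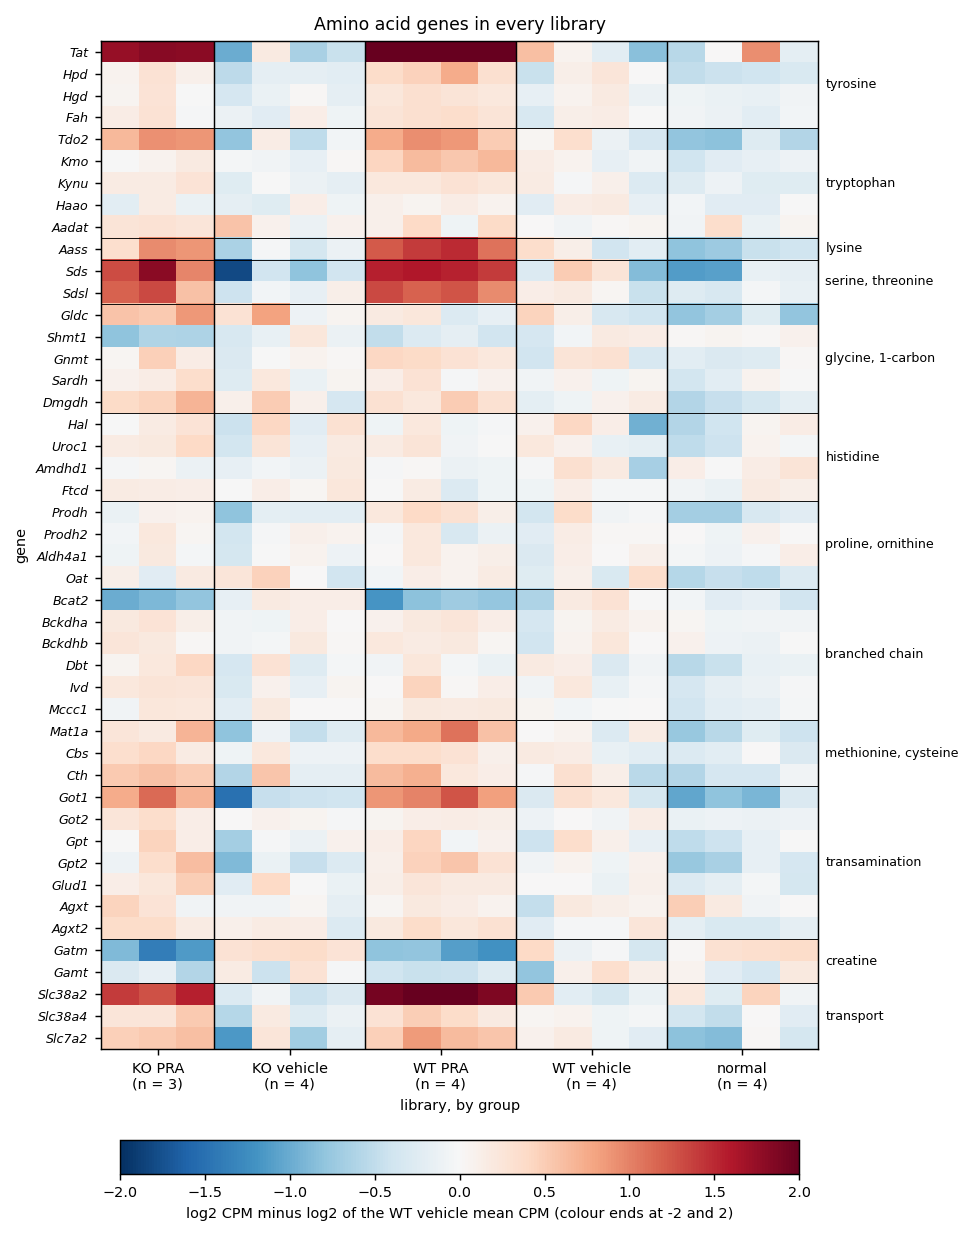
Heat map of the 46 genes (rows, grouped by pathway) in the 19 libraries (columns, by group), coloured by log2 CPM minus log2 of the WT vehicle mean CPM. Tat, Aass, Sds, Sdsl, Got1 and Slc38a2 are red in all PRA columns of both genotypes, and Bcat2 and Gatm are blue there.

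Tyrosine breakdown was led by Tat, tyrosine aminotransferase, which catalyses the first and rate-limiting step. Tat stood at 4477, 4687 and 4672 CPM in KO PRA libraries, against 672, 1504, 853 and 979.9 CPM in KO vehicle. WT PRA libraries had 5719, 6136, 6444 and 5469 CPM, against 2027, 1396, 1153 and 749 CPM in WT vehicle and 905, 1339.9, 2549 and 1162 CPM in normal libraries. All PRA libraries were above all vehicle and normal libraries, and vehicle and normal libraries overlapped. The log2 fold change was 2.20 ± 0.34 in KO (edgeR adjusted p 0.000340) and 2.16 ± 0.33 in WT (adjusted p 0.000183).

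Hpd, hydroxyphenylpyruvate dioxygenase of the second step, had 3061, 3568 and 3111 CPM in KO PRA, against 2023, 2568, 2582 and 2504 CPM in KO vehicle libraries. In WT it had 3757, 4015, 4849 and 3641 CPM under PRA, against 2141, 3156, 3436 and 2916 CPM after vehicle and 2075, 2164, 2211 and 2370.2 CPM without injection. PRA and vehicle libraries did not overlap in either genotype. On the log2 scale the fold change was 0.42 ± 0.14 in KO (edgeR adjusted p 0.0397) and 0.48 ± 0.13 in WT (adjusted p 0.0100). The KO call was lost, with adjusted p 0.0521 to 0.173 and log2 fold changes 0.35 to 0.46, without KO vehicle replicate 1, 3 or 4 or KO PRA replicate 2 or 3, and with upper quartile scaling (0.36, adjusted p 0.0918). Both calls were lost with library totals (adjusted p 0.199 in KO and 0.167 in WT). Of the later enzymes, Fah, fumarylacetoacetate hydrolase of the last step, averaged 819 ± 86.4 CPM in KO PRA and 709 ± 74.8 in KO vehicle, and 916 ± 27.5 in WT PRA and 743 ± 103 in WT vehicle (SD). Its log2 fold change was 0.21 ± 0.11 in KO (edgeR adjusted p 0.218) and 0.30 ± 0.10 in WT (adjusted p 0.0401). The WT call did not survive leaving out WT vehicle replicate 1 or 4 or any single WT PRA library (adjusted p 0.0644 to 0.0916, log2 fold change 0.22 to 0.32). It was also lost with upper quartile scaling (0.25, adjusted p 0.112), with no filter on low counts (0.0518), with the replicate number as a block (0.0538) and in a fit of only the groups compared (0.0777), and with library totals the log2 value was 0.01. Hgd, homogentisate dioxygenase between them, had log2 fold changes of 0.26 ± 0.10 and 0.26 ± 0.09, with adjusted p 0.0877 and 0.0581 in KO and WT.

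In tryptophan breakdown the first enzyme was higher in both genotypes. Tdo2, tryptophan dioxygenase, had 2966, 3567 and 3476 CPM in KO PRA, against 1089, 2092, 1327 and 1819.7 CPM in KO vehicle libraries. In WT, PRA libraries had 3159.6, 3603, 3437 and 2684 CPM, against 1933, 2372, 1738 and 1489.8 CPM in WT vehicle and 1088, 1069.6, 1569 and 1257 CPM in normal. No PRA library overlapped the vehicle libraries of its genotype. Its log2 fold change was 1.08 ± 0.19 in KO (edgeR adjusted p 0.000649) and 0.77 ± 0.18 in WT (adjusted p 0.00398).

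Kmo, kynurenine monooxygenase, had 261, 276 and 298 CPM in KO PRA, against 254, 249, 234 and 266 CPM in KO vehicle libraries, which overlapped. The WT PRA libraries had 352, 407, 380.1 and 412 CPM, all above the 289, 275, 235 and 248 CPM of WT vehicle and the 198, 225, 234 and 244 CPM of normal libraries. Its log2 fold change was 0.15 ± 0.10 in KO (edgeR adjusted p 0.318) and 0.57 ± 0.09 in WT (adjusted p 0.000115). Kynu, kynureninase, averaged 198 ± 8.40 CPM in KO PRA and 158 ± 10.9 in KO vehicle, and 203 ± 5.58 in WT PRA and 173 ± 21.9 in WT vehicle. Its log2 fold change was 0.33 ± 0.09 in KO (edgeR adjusted p 0.0199) and 0.24 ± 0.09 in WT (adjusted p 0.0570). The KO call was lost without KO vehicle replicate 1 or 4 or KO PRA replicate 3 (adjusted p 0.0512 to 0.0728, log2 fold change 0.29 to 0.31), with upper quartile scaling (0.26, adjusted p 0.0588), in a fit of only the groups compared (0.0583) and with library totals (0.12, 0.411). Haao, hydroxyanthranilate dioxygenase, and Aadat, an aminotransferase of kynurenine and aminoadipate, passed in neither genotype, with log2 fold changes of 0.04 ± 0.12 and 0.09 ± 0.14 in KO and 0.09 ± 0.11 and 0.21 ± 0.13 in WT.

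Aass, the enzyme that starts lysine breakdown in mitochondria, had 326, 493 and 475 CPM in KO PRA, against 166, 253, 201 and 236 CPM in KO vehicle libraries. Libraries of WT PRA had 604, 678, 724 and 547 CPM, against 329.6, 279, 197 and 223 CPM in WT vehicle and 148, 156, 188 and 195 CPM in normal. Neither genotype had overlap between PRA and vehicle libraries, and every WT vehicle library also lay above every normal library. The log2 fold change was 1.01 ± 0.18 in KO (edgeR adjusted p 0.000560) and 1.31 ± 0.17 in WT (adjusted p 1.31e-05).

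Both serine dehydratase genes, which neighbour each other in RefSeq's mouse gene table, were higher under PRA. Sds, serine dehydratase, which turns serine and threonine into keto acids, had 921, 1305 and 739 CPM in KO PRA, against 107, 286, 214 and 288 CPM in KO vehicle libraries. In WT, Sds had 1097, 1139, 1084 and 991 CPM under PRA, against 309, 534, 448 and 205 CPM after vehicle and 173, 177, 339 and 329 CPM in normal libraries. All PRA libraries were the higher ones, with log2 fold changes of 2.14 ± 0.36 in KO (edgeR adjusted p 0.000810) and 1.53 ± 0.34 in WT (adjusted p 0.00438). Its paralog Sdsl had 44.9, 49.4 and 29.6 CPM in KO PRA, against 14.8, 19, 17.7 and 21.4 CPM in KO vehicle libraries. WT PRA libraries had 49.7, 44.7, 47.7 and 38.1 CPM, against 21.8, 22.6, 20.4 and 14.5 CPM in WT vehicle and 16.5, 15.9, 19.3 and 17.8 CPM in normal. PRA and vehicle libraries again did not overlap, and the log2 fold change was 1.18 ± 0.16 in KO (edgeR adjusted p 4.79e-05) and 1.18 ± 0.15 in WT (adjusted p 1.43e-05). On the opposite strand, exons of Plbd2 and Gm15690 overlap Sds, the larger of these overlaps covering 21.3% of the merged Sds exons, and with no strand setting stated such reads cannot be told apart.

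**Figure D2:**
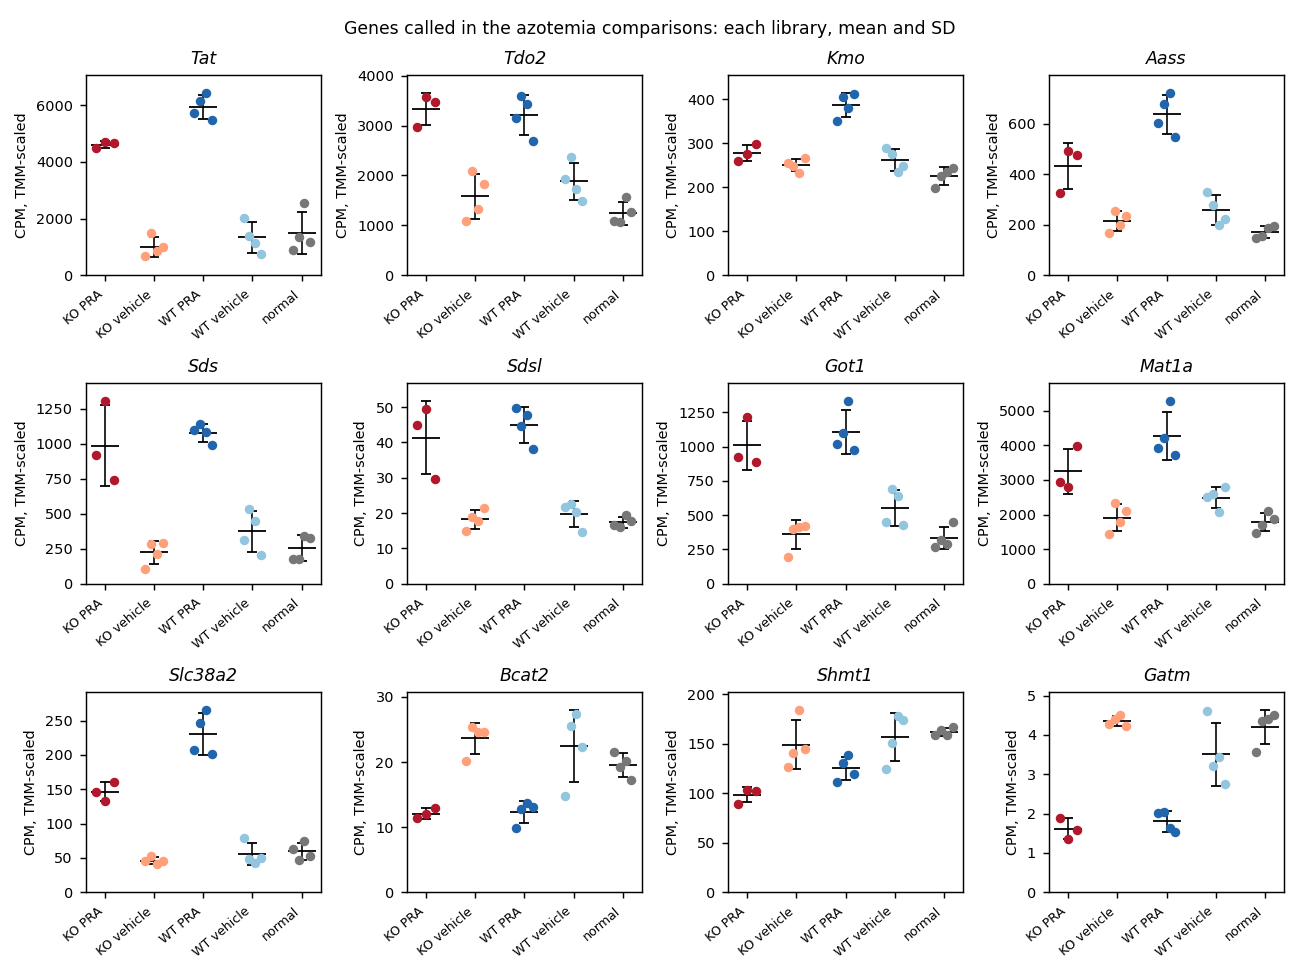
Level of 12 genes called in the azotemia comparisons, in TMM-scaled CPM on linear axes from 0, with 1 point per library, the mean as a horizontal bar and the SD as whiskers, by group. Tat, Tdo2, Aass, Sds, Sdsl, Got1, Mat1a and Slc38a2 have PRA points above all vehicle points of the same genotype, Kmo has that only in WT, and Bcat2 and Gatm have PRA points below them.

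Of the methionine and cysteine enzymes, Mat1a, the liver methionine adenosyltransferase that makes S-adenosylmethionine, was higher in both genotypes. It had 2937, 2811 and 3994 CPM in KO PRA, against 1430.3, 2327, 1789 and 2089 CPM in KO vehicle libraries. In WT, PRA libraries had 3912, 4213, 5277 and 3719.8 CPM, against 2495, 2606, 2061 and 2784 CPM in WT vehicle and 1474, 1699, 2092 and 1867 CPM in normal. The PRA libraries stood above the vehicle libraries without overlap, with log2 fold changes of 0.77 ± 0.17 in KO (edgeR adjusted p 0.00324) and 0.78 ± 0.16 in WT (adjusted p 0.00111). Cbs and Cth, which carry homocysteine to cysteine, passed in neither genotype against vehicle, with log2 fold changes of 0.32 ± 0.12 and 0.57 ± 0.22 in KO and 0.27 ± 0.11 and 0.44 ± 0.21 in WT.

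Among 7 transamination and deamination genes, Got1 was higher in both genotypes and Gpt2 in KO. Got1, cytosolic aspartate aminotransferase, had 923, 1215 and 889 CPM in KO PRA, against 197, 401, 415 and 422 CPM in KO vehicle libraries. The WT PRA libraries had 1017, 1096, 1329.6 and 977 CPM, against 450.4, 688, 642 and 431 CPM in WT vehicle and 269, 318, 292 and 453 CPM in normal. PRA libraries were all above vehicle libraries, and KO vehicle replicate 1 was well below the other 3. On the log2 scale the fold change was 1.49 ± 0.24 in KO (edgeR adjusted p 0.000333) and 0.998 ± 0.23 in WT (adjusted p 0.00368). Its mitochondrial counterpart Got2 had 582, 630.2 and 540.4 CPM in KO PRA, against 493, 523, 515 and 484 CPM in KO vehicle libraries. Libraries of WT PRA had 512, 539, 545 and 535 CPM, against 458, 494, 472 and 549 CPM in WT vehicle and 449, 459.8, 453 and 458 CPM in normal. Got2 libraries did not overlap in KO and overlapped in WT, and the gene did not pass against vehicle, with log2 fold changes of 0.21 ± 0.08 in KO (edgeR adjusted p 0.0877) and 0.11 ± 0.08 in WT (adjusted p 0.326). In KO it passed with DESeq2 (adjusted p 0.0276) and limma-voom (0.0257).

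The log2 ratio of Got2 to Got1 (CPM plus 0.5) was -0.78 ± 0.15 in KO PRA and 0.55 ± 0.52 in KO vehicle libraries, and -1.04 ± 0.18 in WT PRA and -0.14 ± 0.40 in WT vehicle libraries (SD). The 2-sided exact permutation p was 0.0286 in each genotype, the smallest that 3 against 4 and 4 against 4 libraries allow, and after adjustment over 8 gene pairs it was 0.0762 in KO and 0.114 in WT.

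Gpt2, mitochondrial alanine aminotransferase, had 477, 656 and 785 CPM in KO PRA, against 277, 469, 373 and 423 CPM in KO vehicle libraries. In WT it had 550.0, 709, 756 and 628 CPM under PRA, against 489.5, 539, 483 and 543 CPM after vehicle and 304, 329, 459.6 and 405 CPM in normal libraries. PRA libraries lay above vehicle libraries in each genotype, and the gene passed in KO (log2 fold change 0.73 ± 0.18, edgeR adjusted p 0.00695) and not in WT (0.36 ± 0.16, adjusted p 0.122), where it passed in a fit of only the groups compared (adjusted p 0.0389). Without KO PRA replicate 3 the KO value was 0.56, with adjusted p 0.0565. Gpt, the cytosolic form, overlapped between PRA and vehicle, with 376, 517 and 415 CPM in KO PRA and 236, 371, 350.4 and 403 CPM in KO vehicle libraries. WT PRA libraries had 413, 509.7, 363 and 404 CPM, against 283, 484, 408 and 339 CPM in WT vehicle and 266, 285, 336 and 375 CPM in normal. Its log2 fold changes were 0.36 ± 0.19 in KO and 0.16 ± 0.17 in WT (edgeR adjusted p 0.209 and 0.556).

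The glyoxylate aminotransferases did not pass against vehicle. Agxt, which detoxifies glyoxylate, had 403, 356 and 280.5 CPM in KO PRA, against 281, 282, 301 and 261 CPM in KO vehicle libraries. In WT, PRA libraries had 304, 336, 327 and 309 CPM, against 212, 337, 318 and 309.7 CPM in WT vehicle and 413, 333, 280.0 and 294 CPM in normal. PRA and vehicle libraries of Agxt overlapped in both genotypes, with log2 fold changes of 0.30 ± 0.15 in KO and 0.12 ± 0.14 in WT. Agxt2, the mitochondrial enzyme that also degrades dimethylarginine, had 145, 144 and 126 CPM in KO PRA, against 121, 126, 124 and 92.9 CPM in KO vehicle libraries. The WT PRA libraries had 129, 144, 132 and 138 CPM, against 95.5, 111, 110.1 and 132 CPM in WT vehicle and 98.3, 91.2, 90.6 and 98.7 CPM in normal. Agxt2 libraries of KO PRA lay above KO vehicle by less than 1 CPM at the nearest pair and overlapped in WT, and its log2 fold change was 0.25 ± 0.11 in KO and 0.28 ± 0.10 in WT (edgeR adjusted p 0.122 and 0.0574). Leaving out WT vehicle replicate 4 made it pass in WT (0.36, adjusted p 0.0163), as did RLE size factors (0.0480), DESeq2 (0.0351) and limma-voom (0.0363), and limma-voom also called it in KO (0.0374). Glud1, glutamate dehydrogenase, had log2 fold changes of 0.26 ± 0.13 in KO and 0.18 ± 0.12 in WT and did not pass.

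Of 5 glycine and folate-linked genes, Shmt1 was lower and none was higher. Shmt1, cytosolic serine hydroxymethyltransferase, had 89.6, 103 and 102 CPM in KO PRA, against 126, 141, 184 and 145 CPM in KO vehicle libraries, without overlap. Libraries of WT PRA had 112, 130.2, 139 and 119.9 CPM, against 124, 151, 178 and 174 CPM in WT vehicle and 159, 164, 159 and 167 CPM in normal, and PRA and vehicle overlapped. Its log2 fold change was -0.60 ± 0.13 in KO (edgeR adjusted p 0.00239) and -0.33 ± 0.12 in WT (adjusted p 0.0489). The WT call was lost without WT vehicle replicate 2, 3 or 4 or WT PRA replicate 1, 2 or 4 (adjusted p 0.0690 to 0.143, log2 fold change -0.35 to -0.26), with RLE size factors (adjusted p 0.0651), with no filter (0.0561), with DESeq2 (0.0533) and in a fit of only the groups compared (0.0930).

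Sardh and Dmgdh, the mitochondrial dehydrogenases of sarcosine and dimethylglycine, did not pass. Sardh had 886, 923 and 1069 CPM in KO PRA, against 697, 966, 759 and 866 CPM in KO vehicle libraries, and 911, 1026, 824 and 883 CPM in WT PRA, against 799, 882, 788 and 871 CPM in WT vehicle and 649, 722, 874 and 828 CPM in normal. Dmgdh had 648, 677 and 794 CPM in KO PRA, against 530.3, 708, 532 and 393 CPM in KO vehicle libraries, and 613, 576, 704 and 615 CPM in WT PRA, against 434, 465, 525 and 557 CPM in WT vehicle and 330.1, 360.5, 390.0 and 433 CPM in normal. Sardh overlapped between PRA and vehicle in both genotypes, while Dmgdh overlapped in KO and was above vehicle in every WT PRA library. The Dmgdh log2 fold change was 0.39 ± 0.15 in KO and 0.34 ± 0.14 in WT (edgeR adjusted p 0.0817 and 0.0821), and without KO vehicle replicate 2 the KO value passed (0.54, adjusted p 0.00941). Dmgdh also passed in KO with limma-voom (adjusted p 0.0307) and in WT with DESeq2 (0.0498) and only the groups compared (0.0471). Gldc of the glycine cleavage system had 0.36 ± 0.22 and 0.00 ± 0.20, and Gnmt, glycine N-methyltransferase, 0.28 ± 0.15 and 0.32 ± 0.14, as log2 fold changes in KO and WT, and neither passed.

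None of the 4 histidine enzymes (Hal, Uroc1, Amdhd1 and Ftcd, which act in that order) passed in any comparison. Their log2 fold changes under PRA lay between -0.00 and 0.26 in KO and between -0.05 and 0.09 in WT, with medians of 0.07 and -0.02. Hal, histidine ammonia-lyase, averaged 401 ± 37.3 CPM in KO PRA and 376 ± 103 in KO vehicle, and 364 ± 37.9 in WT PRA and 361 ± 126 in WT vehicle. The log2 fold change of Hal was 0.09 ± 0.26 in KO and 0.01 ± 0.24 in WT, and its vehicle libraries varied more than its PRA libraries.

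The 4 proline and ornithine genes did not pass against vehicle. Prodh, proline dehydrogenase, had 221, 258 and 255 CPM in KO PRA, against 138, 212, 210.4 and 210.1 CPM in KO vehicle libraries, and 279.6, 321, 301 and 262 CPM in WT PRA, against 189, 314, 230.0 and 238 CPM in WT vehicle and 152, 152, 195 and 207 CPM in normal. Prodh2, hydroxyproline dehydrogenase, had 182, 220.3 and 194 CPM in KO PRA, against 146, 186, 203 and 199.8 CPM in KO vehicle libraries, and 186, 220.4, 152 and 175 CPM in WT PRA, against 163, 209, 194 and 193 CPM in WT vehicle and 191, 179, 202 and 189.6 CPM in normal. Prodh lay above vehicle in every KO PRA library and overlapped in WT, while Prodh2 overlapped in both genotypes. The log2 fold changes of Prodh were 0.34 ± 0.16 and 0.26 ± 0.15 (edgeR adjusted p 0.162 in KO and 0.228 in WT). Aldh4a1, which oxidises the product of Prodh, and Oat, ornithine aminotransferase, had log2 fold changes of 0.12 ± 0.11 and -0.08 ± 0.17 in KO and 0.10 ± 0.11 and 0.08 ± 0.16 in WT. Exons of Gm21969 on the same strand overlap 32.5% of the merged Aldh4a1 exons, so the level of Aldh4a1 is uncertain.

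In the branched-chain pathway the transaminase was lower and the later enzymes did not pass. Bcat2, the mitochondrial branched-chain aminotransferase, which is scarce in liver, had 11.3, 12.0 and 12.9 CPM in KO PRA, against 20.1, 25.3, 24.6 and 24.6 CPM in KO vehicle libraries. WT PRA libraries had 9.89, 12.7, 13.7 and 13.1 CPM, against 14.7, 25.5, 27.3 and 22.3 CPM in WT vehicle and 21.6, 19.2, 20.1 and 17.3 CPM in normal. All PRA libraries were below all vehicle and normal libraries. The log2 fold change was -0.97 ± 0.16 in KO (edgeR adjusted p 0.000268) and -0.86 ± 0.15 in WT (adjusted p 0.000255). Exons of a gene on the opposite strand overlap 15.9% of the merged Bcat2 exons. Beside these values, the 8 sinusoidal endothelial markers summed to 174 to 221 CPM in KO PRA, 208 to 241 in KO vehicle, 164 to 203 in WT PRA and 184 to 277 in WT vehicle libraries. Of them 2 were lower and 1 higher in KO, and 6 lower and 1 higher in WT. Of 8 stellate markers, 2 were lower in KO and 3 in WT, and the list summed to 142 to 186, 172 to 246, 115 to 224 and 184 to 220.0 CPM in the same groups. Their part in the lower levels of Bcat2, Shmt1 and Gatm was not tested.

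Bckdha and Bckdhb encode the subunits of the first component of the branched-chain keto acid dehydrogenase. Bckdha had 329, 347 and 313 CPM in KO PRA, against 273, 271, 315 and 290.2 CPM in KO vehicle libraries, and 304, 329, 339 and 314 CPM in WT PRA, against 228, 297, 324 and 300.3 CPM in WT vehicle and 295, 269.7, 274 and 274 CPM in normal. Bckdhb had 75.4, 72.9 and 64.6 CPM in KO PRA, against 60.8, 61.9, 72.8 and 64.9 CPM in KO vehicle libraries, and 73.2, 71.1, 73.0 and 65.5 CPM in WT PRA, against 48.7, 66.8, 74.7 and 64.2 CPM in WT vehicle and 67.4, 59.6, 58.8 and 63.2 CPM in normal. Both overlapped between PRA and vehicle in each genotype. Their log2 fold changes were 0.20 ± 0.10 and 0.12 ± 0.11 in KO and 0.16 ± 0.09 and 0.15 ± 0.10 in WT. Exons of a gene on the opposite strand overlap 61.7% of the merged Bckdha exons, so its level is uncertain. Dbt of the second component, Ivd (isovaleryl-CoA dehydrogenase) and Mccc1 (a methylcrotonoyl-CoA carboxylase subunit) had log2 fold changes of 0.30 ± 0.15, 0.31 ± 0.12 and 0.13 ± 0.10 in KO and 0.00 ± 0.14, 0.17 ± 0.11 and 0.16 ± 0.09 in WT, and none passed.

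Creatine synthesis runs from Gatm, glycine amidinotransferase, which is active chiefly in kidney and pancreas, to Gamt, guanidinoacetate methyltransferase, which is active in liver. Gatm had 1.89, 1.35 and 1.59 CPM in KO PRA, against 4.29, 4.41, 4.50 and 4.23 CPM in KO vehicle libraries. In WT, PRA libraries had 2.01, 2.03, 1.63 and 1.52 CPM, against 4.61, 3.22, 3.45 and 2.74 CPM in WT vehicle and 3.56, 4.35, 4.40 and 4.50 CPM in normal. Every PRA library was below every vehicle and normal library, at levels that were low throughout. On the log2 scale the fold change was -1.43 ± 0.18 in KO (edgeR adjusted p 1.52e-05) and -0.97 ± 0.16 in WT (adjusted p 0.000216). Markers of kidney tubule, summed over 6 genes, were 0.637 to 0.934 CPM in KO PRA, 1.09 to 6.24 in KO vehicle, 0.224 to 5.03 in WT PRA, 0.0612 to 7.51 in WT vehicle and 0.979 to 2.56 in normal libraries. Of the 3 tested, none passed in KO (median log2 fold change -3.99) and 1, Lrp2, was lower in WT (-2.11 ± 0.74, edgeR adjusted p 0.0493, list median -1.07). Slc12a1 was at 0 in all PRA and normal libraries, and Umod, Slc34a1, Slc22a6 and Kap were at 0 in at least 1 library of every group. Their part in the Gatm difference was not tested. Gamt had 156, 169 and 126 CPM in KO PRA, against 213, 141, 234 and 187 CPM in KO vehicle libraries. The WT PRA libraries had 145, 139, 141 and 159.6 CPM, against 109.8, 204, 241 and 207 CPM in WT vehicle and 199.7, 163, 151 and 218 CPM in normal. Groups overlapped, and the log2 fold changes of -0.36 ± 0.21 in KO and -0.38 ± 0.19 in WT did not pass (edgeR adjusted p 0.258 and 0.170). WT vehicle replicate 1 was the lowest of its group, and leaving it out gave a WT value of -0.56 with adjusted p 0.0107, limma-voom called Gamt in WT (adjusted p 0.0179), and with library totals Gamt passed in both genotypes (adjusted p 0.0314 in KO and 0.00494 in WT).

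Of the 3 carriers, Slc38a2 had the smallest adjusted p of all 46 genes in both genotypes. Slc38a2, a sodium-coupled neutral amino acid transporter, had 146, 134 and 161 CPM in KO PRA, against 45.3, 52.3, 40.7 and 44.9 CPM in KO vehicle libraries. Libraries of WT PRA had 208, 247, 266 and 201 CPM, against 78.7, 47.8, 43.2 and 50.4 CPM in WT vehicle and 63.4, 46.3, 75.3 and 52.3 CPM in normal. PRA libraries were far above all others, and every WT PRA library was also above every KO PRA library. Its log2 fold change was 1.68 ± 0.18 in KO (edgeR adjusted p 3.72e-06) and 2.07 ± 0.17 in WT (adjusted p 8.59e-08).

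Slc38a4, the related carrier that is abundant in hepatocytes, had 1104, 1114 and 1349.7 CPM in KO PRA, against 629.5, 1068, 784 and 867 CPM in KO vehicle libraries. In WT it had 1150.1, 1313, 1209 and 1059.6 CPM under PRA, against 966, 986, 887 and 911 CPM after vehicle and 730.5, 665, 940.0 and 803 CPM in normal libraries. PRA libraries lay above vehicle libraries in both genotypes, narrowly in KO. The log2 fold change was 0.51 ± 0.14 in KO (edgeR adjusted p 0.0184) and 0.34 ± 0.13 in WT (adjusted p 0.0769). The KO call was lost without KO vehicle replicate 1 or 3 or KO PRA replicate 3 (adjusted p 0.0505 to 0.0943, log2 fold change 0.39 to 0.48), in a fit of only the groups compared (adjusted p 0.0613) and with library totals (0.30, adjusted p 0.156). The WT value passed with DESeq2 (adjusted p 0.0407), limma-voom (0.0454) and only the groups compared (0.0336). The log2 ratio of Slc38a4 to Slc38a2 was 3.01 ± 0.08 in KO PRA and 4.16 ± 0.25 in KO vehicle libraries, and 2.36 ± 0.12 in WT PRA and 4.12 ± 0.35 in WT vehicle libraries (SD). These differences reached the smallest exact permutation p of 0.0286, and 0.0762 in KO and 0.114 in WT after adjustment over the 8 pairs.

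Slc7a2, the cationic amino acid transporter that carries arginine, lysine and ornithine, had 380.2, 389 and 413 CPM in KO PRA, against 123, 320.3, 168 and 239 CPM in KO vehicle libraries. WT PRA libraries had 379, 493, 422 and 400.4 CPM, against 289.6, 309, 255 and 234 CPM in WT vehicle and 154, 149, 277 and 214 CPM in normal. PRA and vehicle libraries did not overlap, and KO vehicle libraries were widely spread. On the log2 scale the fold change was 0.89 ± 0.25 in KO (edgeR adjusted p 0.0207) and 0.64 ± 0.23 in WT (adjusted p 0.0590). The KO call was lost without KO vehicle replicate 3 or KO PRA replicate 2 or 3 (adjusted p 0.0582 to 0.0637, log2 fold change 0.79 to 0.90), with no filter on low counts (adjusted p 0.0662), in a fit of only the groups compared (0.0771) and with library totals (0.0630). The WT value passed with DESeq2 (adjusted p 0.0151), limma-voom (0.0495) and only the groups compared (0.00210).

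Of the 8 gene pairs compared as log2 ratios, none passed after adjustment. With a smallest possible exact permutation p of 0.0286, a pair could pass only if several others also reached that p. Missing the threshold therefore does not show that a ratio was unchanged. Sdsl to Sds was -4.56 ± 0.19 in KO PRA and -3.49 ± 0.47 in KO vehicle libraries (exact permutation p 0.0286, adjusted 0.0762), and -4.57 ± 0.12 in WT PRA and -4.13 ± 0.40 in WT vehicle libraries (exact p 0.114, adjusted 0.229). The pairs Gpt2 to Gpt, Prodh2 to Prodh, Bckdhb to Bckdha, Dmgdh to Sardh and Agxt2 to Agxt changed by 0.35, -0.24, -0.08, 0.18 and -0.02 on the log2 scale in KO, and by 0.18, -0.33, -0.00, 0.22 and 0.15 in WT.

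**Figure D3:**
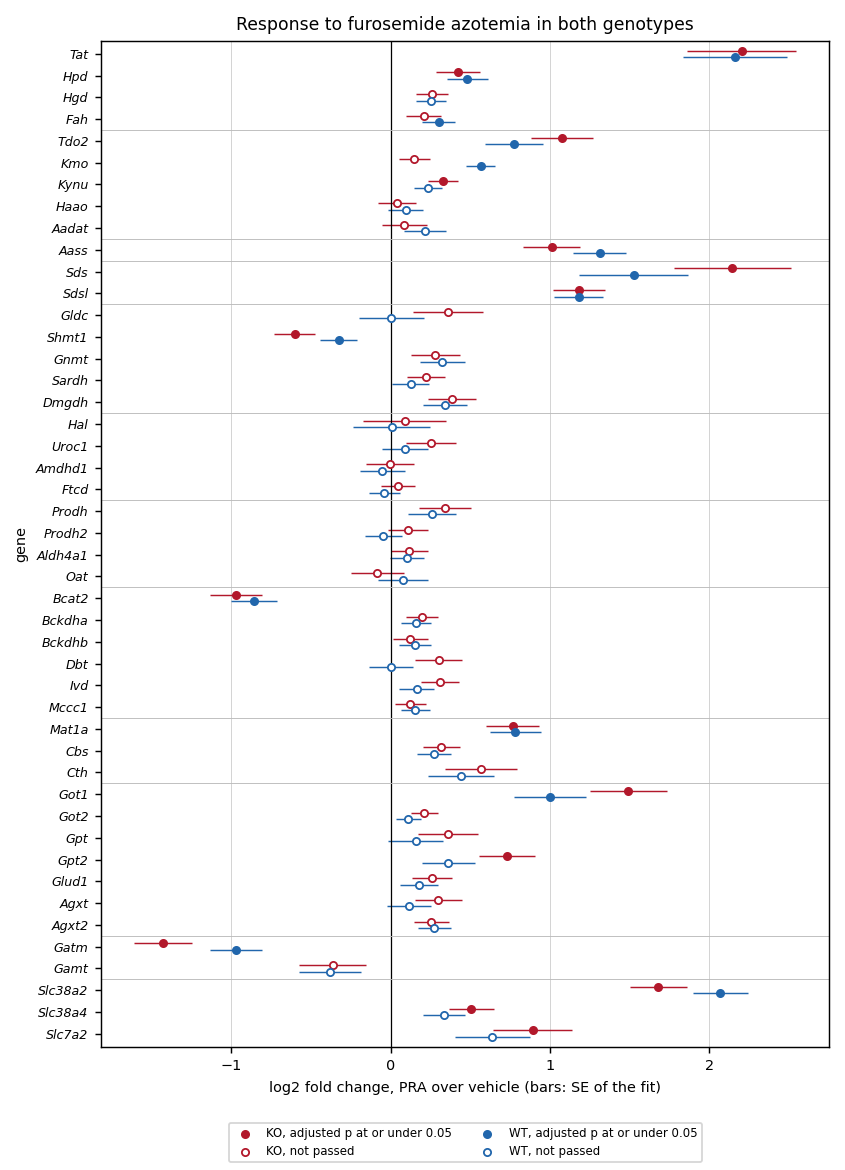
Log2 fold change of PRA over vehicle for each of the 46 genes in KO (red) and WT (blue), with the SE of the fit as bars and filled points for an edgeR adjusted p at or under 0.05. Tat, Sds and Slc38a2 lie farthest to the right and Gatm and Bcat2 farthest to the left in both genotypes, while the histidine genes lie near 0.

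Whether the response depended on IL-6 was tested as the KO response minus the WT response. None of the 46 genes passed (edgeR, smallest adjusted p 0.253, for Kmo), with 1 at an unadjusted p under 0.05. DESeq2 called 0 with 1 unadjusted, and limma-voom 0 with 3 unadjusted. Over all genes, edgeR called 0.475% at the adjusted threshold, 0.0385% higher and 0.437% lower. The differences ran from -0.46 for Gatm to 0.62 for Sds, with a median of 0.05. Kmo had a difference of -0.42 ± 0.13, Gatm -0.46 ± 0.24, Slc38a2 -0.39 ± 0.25, Aass -0.30 ± 0.25, Got1 0.49 ± 0.33 and Sds 0.62 ± 0.49 (log2, SE of the fit). Tat had 0.04 ± 0.46 and Mat1a -0.02 ± 0.23. With SEs of this size, differences of the order of those for Got1 or Sds could not be told from 0, and a p that misses the threshold does not show equal responses. Genes that passed in 1 genotype only, Fah, Kmo, Kynu, Gpt2, Slc38a4 and Slc7a2, were therefore not shown to differ between genotypes.

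**Figure D4:**
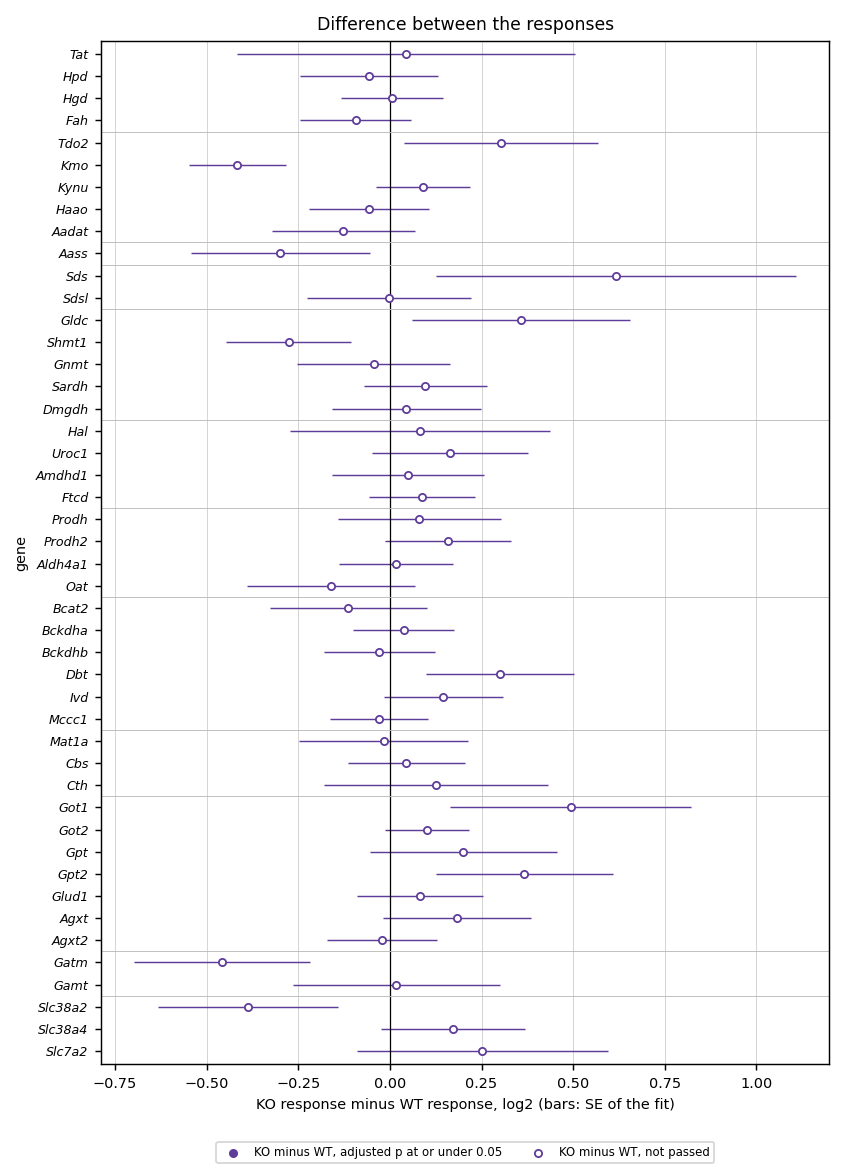
KO response minus WT response (log2) for each of the 46 genes, with the SE of the fit as bars. All points are open because none reached an adjusted p of 0.05. Kmo, Gatm, Slc38a2, Aass and Shmt1 are among the genes left of 0 by more than their bars, which are no threshold. Sds lies farthest to the right with a wide bar.

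Among PRA livers compared directly, KO against WT, 1 of the 46 genes was lower and none higher, where 3.80% of all genes were called, 1.64% higher and 2.15% lower. Kmo averaged 278 ± 18.8 CPM in KO PRA and 388 ± 27.6 CPM in WT PRA (SD, n = 3 and 4), a log2 difference of -0.48 ± 0.10 (edgeR adjusted p 0.00611). Without KO PRA replicate 1 it was -0.44 with adjusted p 0.0508, and with library totals -0.41 with adjusted p 0.0512. Slc38a2 averaged 147 ± 13.7 CPM in KO PRA and 231 ± 31.0 CPM in WT PRA, a log2 difference of -0.65 ± 0.18 with an adjusted p of 0.0503 that missed the threshold. It passed with DESeq2 (adjusted p 0.00943) and limma-voom (0.0105), with RLE (0.0439) and upper quartile scaling (0.0369), with a filter of 1 CPM in 3 libraries (0.0424), with only the groups compared (0.00212) and with the replicate block (0.0478), and in no fit that left out a single library, for which edgeR gave adjusted p 0.0572 to 0.169. Libraries did not overlap for Tat, Hpd, Kmo, Aass, Shmt1, Prodh and Slc38a2, all lower in KO PRA, and for Gldc, higher in KO PRA at 257 ± 33.3 against 163 ± 27.6 CPM. Such separation held for 8.48% of all genes in the higher and 7.26% in the lower direction. At an unadjusted p under 0.05 there were 7 of the 46, and DESeq2 called 4 and limma-voom 3. No share of all genes is given for these counts.

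After vehicle, none of the 46 passed between KO and WT livers (edgeR, smallest adjusted p 0.658, for Got1, whose log2 difference was -0.62 ± 0.22). At an unadjusted p under 0.05 there were 5, and DESeq2 and limma-voom called 0, with 7 and 9 unadjusted. Over all genes edgeR called 0.0706% at the adjusted threshold, 0.0514% higher and 0.0193% lower. No share of all genes is given at an unadjusted p. All libraries were separated for 2 of the 46, Got1 and Gpt2, both lower in KO vehicle than in WT vehicle, against 1.14% of all genes in that direction and 1.54% in the other.

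Livers of non-injected mice served as a second baseline. Comparisons with normal livers share WT PRA or WT vehicle libraries with those above, so their values are given side by side and are not independent. After vehicle, WT livers had no gene of the 46 past the threshold against normal (edgeR, smallest adjusted p 0.0744, for Aass), where 2.00% of all genes were called, 1.18% higher and 0.822% lower. At an unadjusted p under 0.05 there were 15, and no share of all genes is given at that level or for the other tools. DESeq2 called 3 (Tdo2, Aass and Got1) and limma-voom 3 (Hpd, Tdo2 and Prodh), with 16 and 24 unadjusted. By edgeR, 1 gene passed when a single library was left out: Hpd without WT vehicle replicate 1 (0.52, adjusted p 0.0185), Aass without WT vehicle replicate 3 (0.69, 0.0380) or Got1 without normal replicate 4 (0.92, 0.0492). The median log2 fold change of the 46 was 0.19, against 0.01 over all genes. The values were 0.73 ± 0.22 for Got1, 0.60 ± 0.18 for Tdo2, 0.58 ± 0.17 for Aass, 0.48 ± 0.16 for Mat1a, 0.46 ± 0.15 for Prodh and 0.40 ± 0.13 for Hpd. Tat and Slc38a2 had -0.16 ± 0.31 and -0.11 ± 0.17. Aass, Dmgdh and Gpt2 were higher in every WT vehicle library than in every normal library, as were 4.74% of all genes, and 3.78% were lower in that way.

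Under PRA, WT livers had 28 of the 46 genes higher and 3 lower than normal livers, with 15 not passed, where 28.4% of all genes were called, 13.5% higher and 14.9% lower. Libraries did not overlap for 29 in the higher direction and 3 in the lower, against 16.7% and 16.9% of all genes. The median log2 fold change was 0.42, against -0.02 over all genes. Of the 10 hepatocyte markers, 5 were also higher, and their sums were 134477 to 142097 CPM in WT PRA and 97247 to 109452 CPM in normal libraries. Their part was not tested. All 4 tyrosine genes, all 3 methionine and cysteine genes, both serine dehydratases, Aass and all 3 carriers were higher, as were 5 of 7 transamination genes, 3 of 5 tryptophan genes, 3 of 5 glycine and folate-linked genes, 2 of 4 proline and ornithine genes and 2 of 6 branched-chain genes. Shmt1, Bcat2 and Gatm were lower. The highest log2 fold changes were those of Sds (2.08 ± 0.35, edgeR adjusted p 0.000323), Tat (2.00 ± 0.33, 0.000230), Slc38a2 (1.96 ± 0.17, 7.64e-08), Aass (1.89 ± 0.17, 8.70e-08) and Got1 (1.73 ± 0.23, 1.94e-05).

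Genes that passed against normal and not against WT vehicle included Cth (0.76 ± 0.21, edgeR adjusted p 0.0101), Cbs (0.46 ± 0.11, 0.00309), Dmgdh (0.73 ± 0.14, 0.000460), Prodh (0.72 ± 0.15, 0.00123), Oat (0.53 ± 0.16, 0.0142) and Agxt2 (0.52 ± 0.10, 0.000658). For Oat the log2 difference between WT vehicle and normal was 0.45 ± 0.16, with 0.08 ± 0.16 between PRA and vehicle. Calls against normal that leaving out 1 library ended were Gldc without normal replicate 1, 2 or 4 or WT PRA replicate 1 or 2 (adjusted p 0.0667 to 0.0891, log2 fold change 0.53 to 0.59), Ivd without normal replicate 1 or 2 or WT PRA replicate 2 or 4 (0.0541 to 0.161, 0.22 to 0.33) and Glud1 without normal replicate 1 or 4 or WT PRA replicate 2 (0.0513 to 0.0611, 0.34 to 0.36). Got2 lost its call when any single normal library was left out, or without WT PRA replicate 2, 3 or 4 (0.0572 to 0.0831, 0.21 to 0.23), and Shmt1 without WT PRA replicate 1 or 4 (0.0506 to 0.0650, -0.36 to -0.33). Gldc and Got2 were also lost with no filter on low counts (0.0905 and 0.0971), and Got2 and Ivd with upper quartile scaling (0.121 and 0.0697). With library totals, Fah, Kynu, Gldc, Gnmt, Prodh, Oat, Cbs, Cth, Glud1, Agxt2 and Slc38a4 lost their calls. Hgd, Ivd, Mccc1 and Got2 lost theirs too, and their log2 values turned negative (edgeR adjusted p 0.0696 to 0.905). In that fit 13 genes were higher and 9 lower, and the median of all genes was -0.40. Of all genes called against normal, 47.5% were higher with TMM, 38.6% with upper quartile scaling and 9.21% with library totals.

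**Figure D5:**
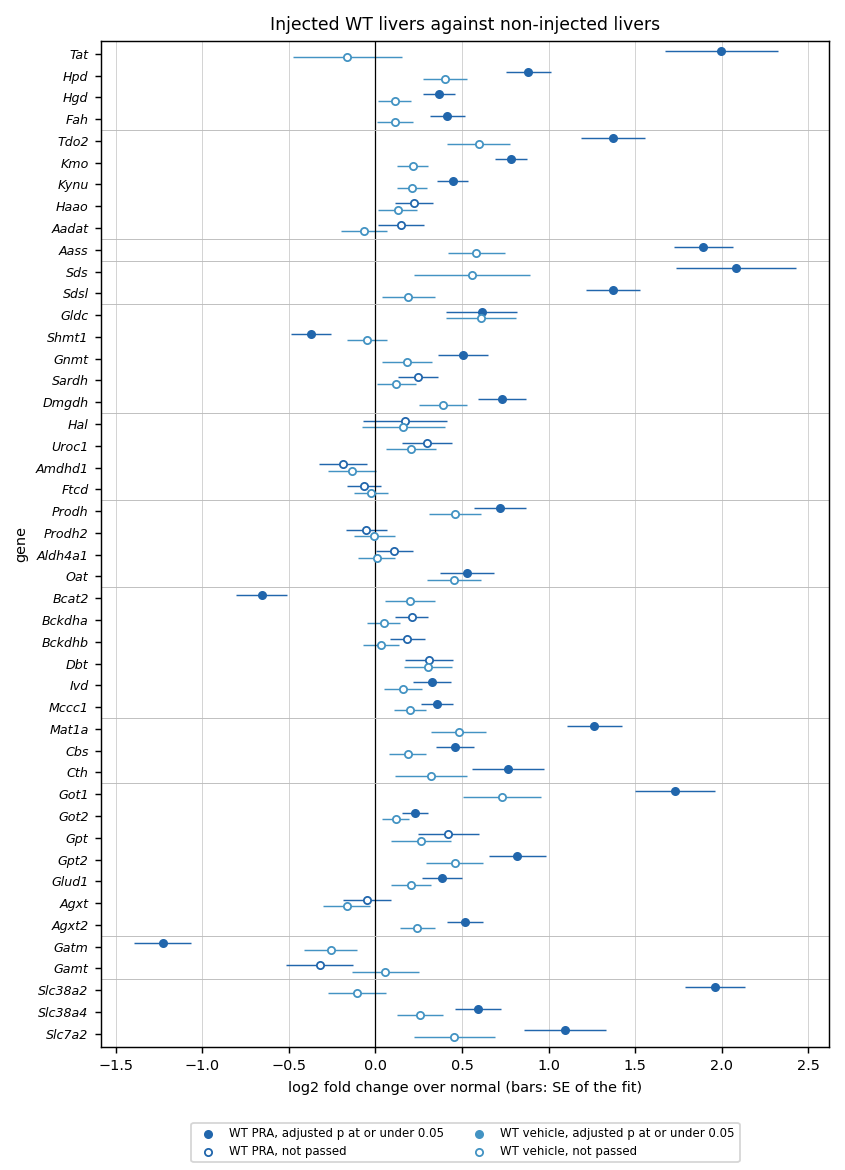
Log2 fold change over normal livers for each of the 46 genes in WT PRA (dark blue) and WT vehicle (light blue), with the SE of the fit as bars and filled points for an edgeR adjusted p at or under 0.05. No WT vehicle point is filled, 31 WT PRA points are, and the 2 series lie close together for Gldc, Oat, Dbt and the histidine genes.

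Expression per length set the scale of these changes. Per kilobase of merged exon (GENCODE lengths, matched by Ensembl ID), Gnmt had the highest level in normal livers, 1591 ± 162 CPM per kb, followed by Hpd at 1036 ± 58.1, Tat at 619 ± 303, Mat1a at 514 ± 75.4 and Tdo2 at 321 ± 59.7 (SD, n = 4). In this order, single libraries of Tat overlapped with those of Hpd, Mat1a and Tdo2. Under PRA, Tat stood at 1918 ± 48.6 CPM per kb in KO and 2471 ± 180.1 in WT livers, where Gnmt stood at 2120.2 ± 339 and 2260.3 ± 138. The lowest were Gatm at 1.40 ± 0.145, Mccc1 at 3.68 ± 0.362, Bcat2 at 5.01 ± 0.461 and Slc38a2 at 6.71 ± 1.44 CPM per kb in normal livers. Per kilobase, Slc38a4 was the more abundant carrier throughout, at 279 ± 32.6 against 16.6 ± 1.55 for Slc38a2 in KO PRA and 278 ± 24.9 against 26.1 ± 3.51 in WT PRA livers. Sds likewise exceeded Sdsl per kilobase, at 583 ± 171 against 27.6 ± 6.91 in KO PRA livers.

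Of 48 further catabolic genes, 47 were tested. 4 were higher and 2 lower under PRA in KO, and 5 higher and 4 lower in WT, with median log2 fold changes of 0.15 and 0.06. The shares called higher were 8.51% in KO and 10.6% in WT, near the 7.96% and 9.74% of all genes. Of 25 further carriers, 24 were tested. 4 were higher and 1 lower in KO, and 6 higher and 2 lower in WT, with medians of -0.05 and 0.03. The shares called higher were 16.7% and 25.0%. Against normal livers, 16 of the catabolic genes were higher and 2 lower in WT PRA, and 6 of the carriers were higher and 1 lower, which makes 34.0% and 25.0% higher where 13.5% of all genes were higher. Bckdk, the kinase that inactivates the branched-chain keto acid dehydrogenase, had 7.92, 7.34 and 7.54 CPM in KO PRA, against 20.2, 13.8, 15.1 and 14.8 CPM in KO vehicle, and 7.48, 8.01, 9.45 and 8.32 CPM in WT PRA, against 13.3, 13.5, 16.1 and 16.4 CPM in WT vehicle libraries. It was lower in every PRA library than in any vehicle library, with log2 fold changes of -1.07 ± 0.13 in KO (edgeR adjusted p 1.00e-05) and -0.83 ± 0.12 in WT (adjusted p 3.45e-05). Hykk, hydroxylysine kinase, averaged 39.4 ± 6.48 CPM in KO PRA and 60.0 ± 4.38 in KO vehicle, and 38.4 ± 4.70 in WT PRA and 68.1 ± 3.00 in WT vehicle, with log2 fold changes of -0.61 ± 0.11 and -0.83 ± 0.10 (edgeR adjusted p 0.000465 in KO and 3.76e-06 in WT).

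Among carriers, Slc6a6, the taurine transporter, averaged 31.2 ± 3.39 CPM in KO PRA and 63.1 ± 6.68 in KO vehicle, and 29.7 ± 2.84 in WT PRA and 54.2 ± 6.55 in WT vehicle (log2 fold change -1.02 ± 0.11 in KO and -0.87 ± 0.10 in WT, edgeR adjusted p 3.13e-06 and 3.48e-06). Slc25a22, a mitochondrial glutamate carrier, was higher, at 675 ± 76.6 in KO PRA and 364 ± 37.0 in KO vehicle, and 593 ± 63.1 in WT PRA and 437 ± 91.6 CPM in WT vehicle livers (0.89 ± 0.14, 0.000137 in KO and 0.44 ± 0.13, 0.0177 in WT). Slc7a6, a cationic and neutral amino acid exchanger, had 0.464, 0.382 and 0.595 CPM in KO PRA, against 0.312, 0.211, 0.334 and 0.130 CPM in KO vehicle libraries, with a log2 fold change of 0.96 ± 0.38 that did not pass (edgeR adjusted p 0.0960). In WT PRA it had 2.52, 1.17, 1.74 and 1.30 CPM, against 0.234, 0.233, 0.122 and 0.182 CPM in WT vehicle libraries (3.07 ± 0.35, adjusted p 2.58e-06). The interaction for Slc7a6 was -2.11 ± 0.52 and did not pass (adjusted p 0.0895). The 7 neutrophil markers, beside it, summed to 2.85 to 10.8 CPM in KO PRA, 2.26 to 4.02 in KO vehicle, 8.46 to 10.4 in WT PRA and 0.636 to 1.19 in WT vehicle libraries, and of the 5 tested 2 were higher in KO and 5 in WT. Their part in the Slc7a6 difference was not tested. Of the other lists, 4 of 5 red cell markers, 1 of 8 Kupffer markers and 1 of 5 tested cholangiocyte markers were higher in WT PRA than in WT vehicle, and none passed in KO.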

How the data were processed

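PolyA-selected liver RNA was sequenced in 19 libraries, paired-end. The authors deposited 1 table per library with raw counts per Ensembl gene, made with HISAT2 2.2.1, SAMtools 1.13 and HTSeq 0.11.3 on GRCm39, per the submitters' processing notes. The annotation release and the strand setting were not given in the sources used here. HTSeq's summary lines (no feature, ambiguous, not unique and the like) were left out of totals and tests. Genes took 66.9 to 71.7% of all tallied reads, and reads that aligned to several places took 14.1 to 19.2%, so near-identical copies lose counts.

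Libraries were grouped by the genotype and treatment labels. Counts were tested with edgeR 4.0.16 in R 4.3.3 (filterByExpr, TMM, robust quasi-likelihood fit, 1 model with a mean per group over all 19 libraries, 7 contrasts, Benjamini-Hochberg over 15570 genes, threshold 0.05). Each ± after a log2 fold change is the SE of the fit, and each ± after a level is the SD over libraries. Ratios of 8 related gene pairs were tested by a 2-sided exact permutation test with a pseudocount of 0.5 CPM. The script was tested on simulated data. Alternatives were RLE and upper quartile scaling, other filters, DESeq2 1.42.0, limma-voom (limma 3.58.1), glmTreat, the replicate number as a block, only the groups compared, each library left out, and, chosen after seeing the data because TMM factors differed between PRA and other libraries, library totals without scaling factors.

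The members and lists were chosen with earlier results of these data known. Values in every library are given for the 10 genes with the smallest adjusted p in each PRA comparison, the 6 smallest between WT vehicle and normal, genes past the threshold between genotypes, and all creatine, carrier and paired genes. Of the further pathway genes, the 4 with the smallest adjusted p in each genotype are named. Promoter and gene tables are RefSeq on GRCm38.p6, and exon lengths are from GENCODE on GRCm38, matched by gene ID or symbol, with no coordinate of the counts converted.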

Additional observations from a re-analysis of the deposited data

Results flagged for a closer look

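Among 108 sets of 4 libraries tested for a library that stands apart (27 genes with values in every library, in the 4 groups of 4), 7 held one by Dixon's criterion, and chance flags about 1 in 20 groups. In KO vehicle livers, replicate 1 was the lowest for Got1 at 197 CPM (others 401 to 422), Hpd at 2023 CPM (others 2504 to 2582), Prodh at 138 CPM (others 210.1 to 212) and Bcat2 at 20.1 CPM (others 24.6 to 25.3). Without that library, 10 of the 46 genes were higher and 3 lower in KO PRA than in KO vehicle. Agxt2 in KO vehicle replicate 4 was 92.9 CPM (others 121 to 126). In normal livers, replicate 1 was 294.9 CPM for Bckdha (others 269.7 to 274) and 3.56 CPM for Gatm (others 4.35 to 4.50).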

How the results depend on the processing

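Of 1749 recomputed log2 fold changes of single genes, 1565 kept their direction and side of the threshold. With the direction kept, 127 lost a call and 39 gained one. The direction reversed in 18, which were counted apart whether or not they also lost or gained a call. For PRA against vehicle in KO, glmTreat against a 1.5-fold change called 5 higher and 1 lower, and leaving out 1 library gave 8 to 19 higher and 3 lower. In WT, DESeq2 called 18 higher, glmTreat 5 higher and 0 lower, and leaving out 1 library gave 10 to 14 higher and 2 to 4 lower. For KO PRA against WT PRA, DESeq2 called 1 higher and 3 lower, a fit of only those groups 1 and 4, limma-voom 3 lower, RLE scaling, upper quartile scaling and a filter of 1 CPM in 3 libraries 2 lower each, glmTreat 0, and leaving out 1 library 0 to 1. Between WT vehicle and normal, DESeq2 and limma-voom called 3 higher and leaving out 1 library 0 to 1. For WT PRA against normal, glmTreat called 8 higher and 1 lower, and leaving out 1 library gave 24 to 27 higher and 2 to 3 lower. The causes were not tested, and the share of all genes called is not given for these alternatives.

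With library totals, an alternative chosen after seeing the data, 7 were lower in WT PRA than in WT vehicle, 0 lower between genotypes under PRA, and 13 higher and 9 lower against normal. Log2 values that reversed with it were, in WT, Sardh -0.17, Prodh -0.030, Bckdha -0.13, Bckdhb -0.14, Got2 -0.19, Gpt -0.13, Agxt -0.17 and Agxt2 -0.020, in KO, Prodh2 -0.10, Bckdha -0.0089 and Bckdhb -0.085, and against normal, Hgd -0.013, Ivd -0.055, Mccc1 -0.025 and Got2 -0.15. Leaving out 1 library reversed Prodh2 (range -0.15 to 0.034) and Agxt (-0.00094 to 0.19) in WT, the ratio of Bckdhb to Bckdha in WT (-0.048 to 0.021) and that of Agxt2 to Agxt in KO (-0.10 to 0.058).

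With the replicate number as a block, 14 genes were higher and 3 lower in KO, 10 and 3 in WT (Fah was lost), 2 lower between KO PRA and WT PRA (Kmo and Slc38a2, -0.70, edgeR adjusted p 0.0478) and 29 higher and 3 lower against normal. Whether the numbers pair the libraries is not stated. Of 36 same-numbered pairs, 9 correlated at r over 0.1, with r from -0.253 to 0.193. Pairs with different numbers were not correlated for comparison, so these values cannot decide it.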
